A study of Homo sapiens with 12 samples.

Results

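The regions described here are the PAX5 sites that the Hodgkin lymphoma line L428-PAX5 shared with Burkitt lymphoma lines. They were chosen by the presence of peaks: peaks of all 6 deposited lists were merged where they overlapped by 1 bp or touched, and a region was kept when both L428-PAX5 libraries and at least 1 of the 4 Burkitt libraries had a peak in it. This gave 444 regions out of 14465 in all. They made up 17.9% (exact 95% interval 16.4 to 19.4%) of the 2487 regions with a peak in both L428-PAX5 libraries. Those 2487 regions made up 17.2% of all merged regions, a share that is no background for the 17.9%. With each list reduced to the length of the shortest there were 188 shared regions (14.6%). Without L428-PAX5 replicate 2, where 1 L428-PAX5 library decides, there were 1042, or 16.9% of the regions with a peak in L428-PAX5 1. The other 2043 L428-PAX5 regions had no Burkitt peak and serve below as the L428-PAX5-only regions.

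PAX5 is a transcription factor of B cells that binds DNA through its paired domain. It switches on B-cell genes, among them the B-cell receptor component CD79A, and holds down genes of other blood lineages. Hodgkin and Reed-Sternberg cells, the tumour cells of classical Hodgkin lymphoma, descend from B cells but have lost most of the B-cell expression programme, although many still make PAX5 at a low level.

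PAX5 binding was mapped by chromatin immunoprecipitation followed by sequencing in 3 human cell lines, with 2 immunoprecipitated and 2 input libraries for each, 12 samples in all. Raji and Namalwa are Burkitt lymphoma lines, grown without treatment, in which PAX5 is the cells' own. L428-PAX5 is an L428 derivative that was given mifepristone, a synthetic steroid, and had its PAX5 overproduction started 48 h before fixation. Neither the promoter that drives this PAX5 nor whether the line is 1 clone is given in the sources used here, and neither an L428 library without induction nor an input library was analysed here. L428-PAX5 was the only Hodgkin line, so that line, tumour type and induced PAX5 cannot be told apart. It is not stated whether a line's libraries are from separate cultures, and their spread may be technical.

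The unit of measure is the authors' p-value of a peak, given here as −log10 p. Since p-values move with depth, which is unknown, strength is also given as a percentile, the share of the peaks of the same list that had a weaker p-value. The lists held 2619 and 4960 peaks for Raji 1 and 2, 6241 and 2107 for Namalwa 1 and 2, and 6201 and 3252 for L428-PAX5 1 and 2. Regions are written by hg19 position as the lists give it (counting from 0 or from 1, which they do not say), and they are named without genes, because no annotation of hg19 was used here. The lists chose the regions, so every value below is a description and none carries a test.

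The shared regions were found most often in every Burkitt library or in only 1. Of the 444, 147 (33.1%, exact 95% interval 28.7 to 37.7%) had a peak in all 4 Burkitt libraries, 78 (17.6%) in 3, 87 (19.6%) in 2 and 132 (29.7%, 25.5 to 34.2%) in 1. Among the 7580 Burkitt regions with no L428-PAX5 peak the order was different: 9.17% had a peak in all 4 libraries and 56.3% in 1. The 699 Burkitt regions with a peak in exactly 1 L428-PAX5 library lay between, with 17.7% (15.0 to 20.8%) in all 4 and 43.5% (39.8 to 47.3%) in 1. The share found in all 4 Burkitt libraries was thus higher with each further L428-PAX5 library. The intervals of the 3 groups did not overlap, but they reflect only how many regions were counted. They leave out the spread between libraries, so this is no test of a difference between the groups. A region counts only where its peak passes the threshold of each list, and the part of peak strength in this order was not tested. Without L428-PAX5 replicate 2, 252 regions were in all 4 Burkitt libraries and 394 in 1.

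Most shared regions belonged to both Burkitt lines. In 263 regions (59.2%, exact 95% interval 54.5 to 63.8%) at least 1 library of each line had a peak, against 31.2% of the Burkitt regions with no L428-PAX5 peak. In 95 regions (21.4%, 17.7 to 25.5%) the Burkitt peaks came from Raji only, against 27.4%, and in 86 (19.4%, 15.8 to 23.4%) from Namalwa only, against 41.4%. Both Raji libraries had a peak in 239 of the shared regions (53.8%), against 22.3% of the Burkitt regions with no L428-PAX5 peak. Both Namalwa libraries had one in 182 (41.0%, against 20.0%). Both Raji libraries and no Namalwa library had a peak in 31 regions (7.0%, 4.8 to 9.8%), against 5.8%. Both Namalwa libraries and no Raji library had one in 18 (4.1%, 2.4 to 6.3%), against 6.7%. The split between Raji only and Namalwa only rested on the longer list of each line: without Raji replicate 2 there were 35 Raji-only regions, and without Namalwa replicate 1 there were 20 Namalwa-only, 189 Raji-only and 169 regions of both lines. Without L428-PAX5 replicate 2 the numbers were 255 in Raji only, 253 in Namalwa only and 534 in both lines, and with lists of equal length 57, 25 and 106.

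Each Burkitt library held between 189 and 342 of the shared regions. Raji 2 and Namalwa 1, the longer lists, each had a peak in 342 (77.0%), Raji 1 in 255 (57.4%) and Namalwa 2, the shortest list, in 189 (42.6%). Among the Burkitt regions with no L428-PAX5 peak these shares were 54% for Raji 2, 70.3% for Namalwa 1, 26.9% for Raji 1 and 22.3% for Namalwa 2. Peaks inside shared regions made up 9.97% of the Raji 1 list, 7.12% of Raji 2, 5.66% of Namalwa 1 and 9.40% of Namalwa 2. They made up 7.39% of the L428-PAX5 1 list and 13.9% of the L428-PAX5 2 list. In each line the shorter list thus had the larger part of its peaks in shared regions. For L428-PAX5 this follows from the rule, since every shared region has a peak in both lists (458 and 452 peaks).

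**Figure D1:**
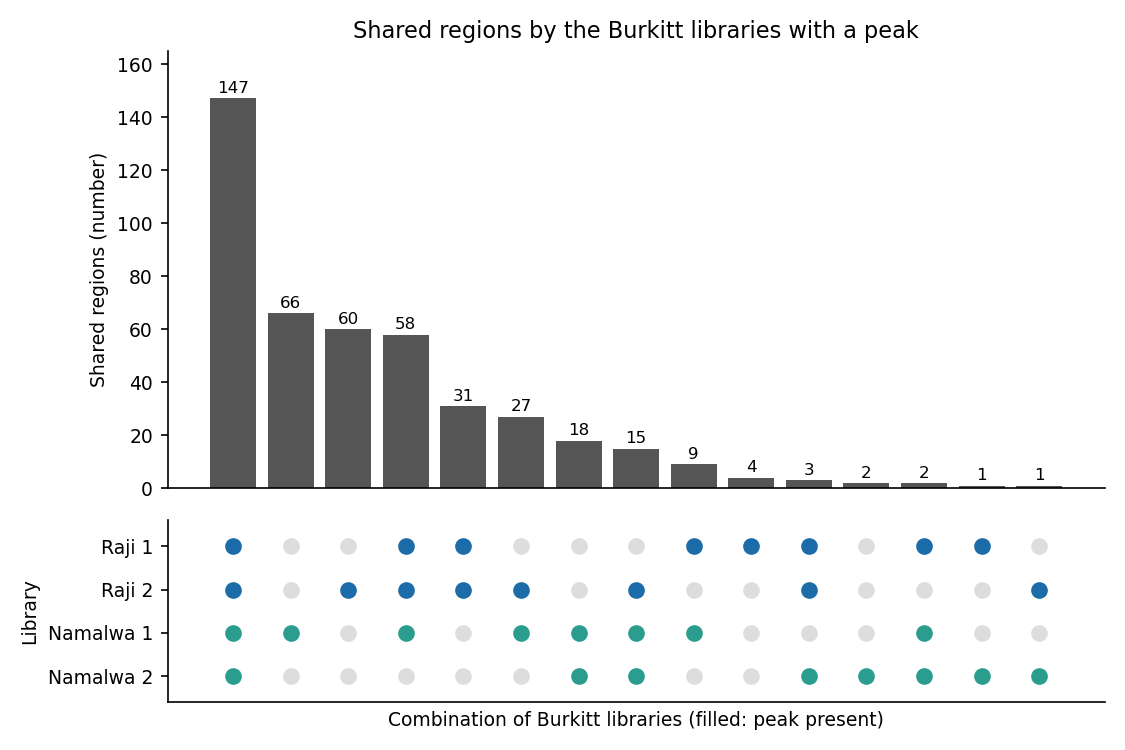
Number of shared regions (bars, number above each) for every combination of Burkitt libraries with a peak, with a filled dot below the bar for each library that had one. The 147 regions of all 4 libraries form the tallest bar, followed by 66 found in Namalwa 1 alone and 60 in Raji 2 alone.

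Of the 15 combinations of Burkitt libraries, 4 held most of the regions. After the 147 regions of all 4 libraries came 66 found in Namalwa 1 alone, 60 in Raji 2 alone, and 58 in both Raji libraries and Namalwa 1. The shorter lists added few regions of their own, with 4 found in Raji 1 alone and 2 in Namalwa 2 alone. List length and the combination of libraries moved together, and the part of depth in these counts was not tested.

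In the L428-PAX5 lists, the shared regions covered nearly the whole range of peak strength. Their −log10 p ran from 5.04 through a median of 11.1 to 220.3 in L428-PAX5 1 and from 5.01 through 7.78 to 169.2 in L428-PAX5 2. The median percentile was 78.4 in L428-PAX5 1 and 60.1 in L428-PAX5 2. The L428-PAX5-only regions had medians of 73.6 and 58.4 in the same lists, so that the groups differed by less than 5 percentile points in either list and overlapped almost fully. Regions of both groups had to have a peak in the shorter list too.

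The L428-PAX5 strength of a region differed little with the number of Burkitt libraries. The median of the mean L428-PAX5 percentile was 62.5 for the 2043 regions with no Burkitt library, 58.5 for the 132 with 1, 66.8 for the 87 with 2, 64.5 for the 78 with 3 and 70.3 for the 147 with 4. The middle 50% of the values spanned 43.5 to 81.8 for regions with no Burkitt library and 48.7 to 87.4 for those with 4, so these groups overlapped widely. When the 2487 L428-PAX5 regions were ordered by strength and split into 10 classes of 248 or 249, between 34 (13.7%) and 52 (21.0%) regions of each class were shared. The strongest class held 46 shared regions and the weakest 45. Regions of all 6 libraries were fewer at the weak end, with 8 in the weakest class and 19 in the strongest.

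In the Burkitt lists the strength of a shared region rose with the number of Burkitt libraries. The median of the mean Burkitt percentile was 32.6 with 1 library, 44.7 with 2, 59.1 with 3 and 80.4 with 4. In Namalwa 1 the median −log10 p was 6.84 for regions found in no other Burkitt library and 23.9 for those found in all 4, and in Raji 2 these values were 6.94 and 20.1. Part of this order is built in, since a weak peak in one list is more easily under the threshold of the next.

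**Figure D2:**
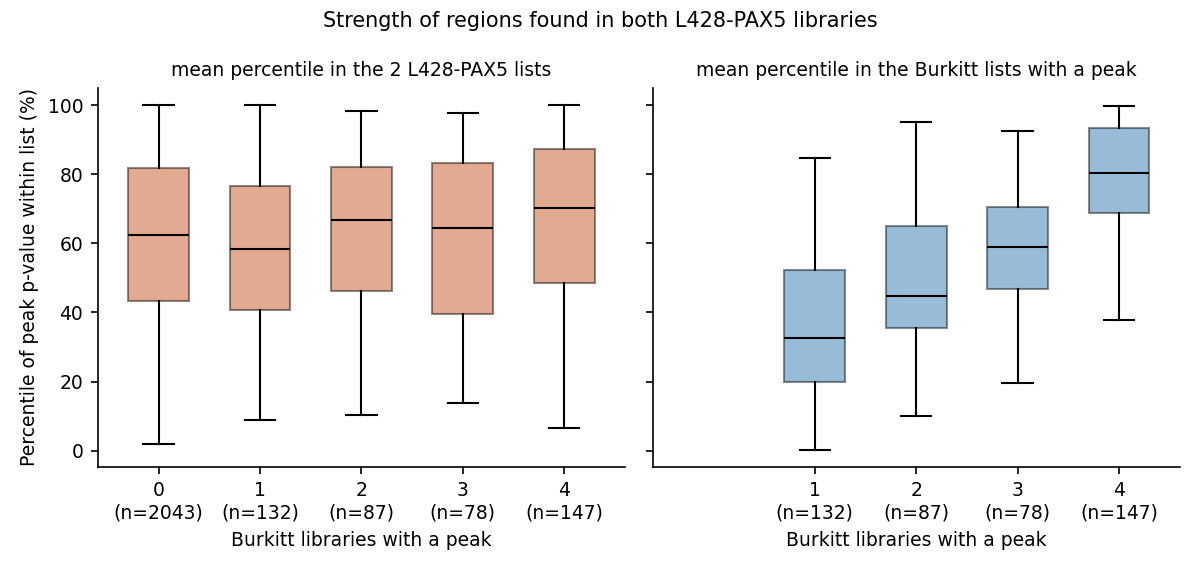
Percentile of the peak p-value within its list (vertical axis, %) by the number of Burkitt libraries with a peak, for regions found in both L428-PAX5 libraries; boxes show the median and the middle 50%, whiskers the lowest and highest region. Left, the L428-PAX5 medians stay between 58.5 and 70.3 in all 5 groups; right, the Burkitt medians go from 32.6 with 1 library to 80.4 with 4.

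Of all L428-PAX5 regions 17.9% were shared. Of the 20 strongest, 3 were shared, of the 100 strongest, 13 (13%, exact 95% interval 7.11 to 21.2%), and of the 500 strongest, 94 (18.8%, 15.5 to 22.5%). Among the regions found in all 4 Burkitt libraries, 15.2% had a peak in both L428-PAX5 libraries. Of the 20 strongest of these by Burkitt percentile, 8 were shared (40%, 19.1 to 63.9%), of the 100 strongest, 35 (35%, 25.7 to 45.2%), of the 200 strongest, 49 (24.5%, 18.7 to 31.1%), and of the 500 strongest, 105 (21%, 17.5 to 24.8%). The shares from the L428-PAX5 side need a peak in any Burkitt library and those from the Burkitt side a peak in both L428-PAX5 libraries, so they are not compared with each other.

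The region chr2:240513807-240515751 was the strongest peak of both L428-PAX5 lists and had a Burkitt peak in a single library. Its −log10 p was 220.3 in L428-PAX5 1 and 169.2 in L428-PAX5 2, and 11.6 in Namalwa 1, at the 67.9th percentile of that list. Neither Raji library and not Namalwa 2 had a peak there. The shared region next in L428-PAX5 strength was chr8:145786376-145788313, with −log10 p of 131.5 and 114.0 in L428-PAX5 1 and 2. In the Burkitt libraries it had 7.53 in Raji 1, 15.4 in Raji 2, 48.1 in Namalwa 1 and 9.85 in Namalwa 2, so that Namalwa 1 stood above the other 3. The third of these regions, chr3:126793570-126794552, was the only one of the 3 that was also at the top of the Burkitt lists, and it is described below.

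The 147 regions of all 6 libraries allow the order of strengths to be compared region by region. Within a line the order was much alike: the Spearman rho of −log10 p over these 147 regions was 0.78 between the Raji libraries, 0.73 between the Namalwa libraries and 0.65 between the L428-PAX5 libraries. Between Raji and Namalwa it ran from 0.48 to 0.53 over 4 pairs of libraries. Between a Burkitt library and an L428-PAX5 library it ran from 0.05 to 0.22 over 8 pairs, below every pair of Burkitt libraries. Pearson's r gave the same separation, with 0.17 to 0.27 for Burkitt and L428-PAX5 pairs and 0.63 to 0.66 for Raji and Namalwa pairs.

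The same picture held with all shared regions that had a peak in both libraries of a pair. There, rho was 0.01 to 0.21 for the 8 pairs with L428-PAX5, over 189 to 342 regions, and 0.49 to 0.60 for the 4 pairs of Raji and Namalwa, over 153 to 247 regions. In the 695 regions of all 4 Burkitt libraries with no L428-PAX5 peak, Raji and Namalwa pairs had a rho of 0.41 to 0.43. In the L428-PAX5-only regions the 2 L428-PAX5 libraries had a rho of 0.62. The points of a pair share no library, but all −log10 p values depend on the depth and the mappability of a region, and regions are not independent replicates.

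Regions of all 6 libraries also lay on average lower in the L428-PAX5 lists than in the Burkitt lists. The rule for these regions favours this order, since it asks for a peak in more Burkitt lists than L428-PAX5 lists. The shortest list, Namalwa 2, is among those required, and lists of equal length keep this rule. Over all shared regions the median of the mean percentile was 66.4 in L428-PAX5 and 58.7 in the Burkitt lists with a peak. That Burkitt mean often rests on 1 list with a weak peak, so part of this order is built in. By list, the medians over shared regions were 77.2 in Raji 1, 75.8 in Raji 2, 70.5 in Namalwa 1 and 68.4 in Namalwa 2. They were 78.4 in L428-PAX5 1 and 60.1 in L428-PAX5 2, so the lists showed no single order. The median of the mean percentile over the 147 regions was 70.3 in L428-PAX5 and 80.4 in the Burkitt lists, and the mean Burkitt percentile was the higher one in 107 regions and the lower one in 40. By list, the median percentile over the 147 regions was 87.9 in Raji 1, 89.6 in Raji 2, 91.1 in Namalwa 1 and 74.8 in Namalwa 2. It was 81.1 in L428-PAX5 1 and 66.6 in L428-PAX5 2, so that the lists of the 2 kinds overlapped at Namalwa 2. In 53 regions (36.1%) every Burkitt percentile was above both L428-PAX5 percentiles, in 14 (9.52%) every one was below both, and in the other 80 the libraries overlapped. Percentiles of lists of different length are not on 1 scale (with equal lengths the mean Burkitt percentile was the higher one in 70.8% of 72 regions, against 72.8% here), and these counts describe ranks within lists and no change in binding.

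**Figure D3:**
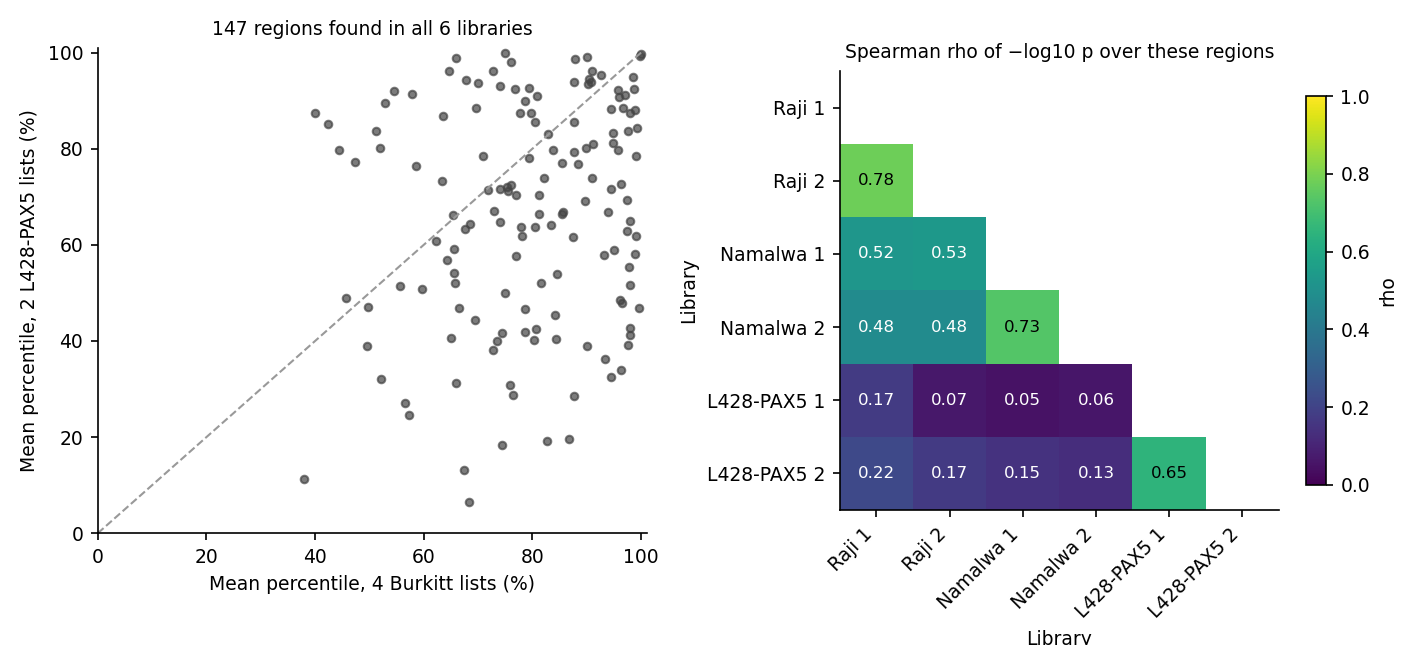
Left, mean percentile in the 2 L428-PAX5 lists (vertical, %) against mean percentile in the 4 Burkitt lists (horizontal, %) for the 147 regions of all 6 libraries, with the line of equal percentiles dashed. Right, Spearman rho of −log10 p over these regions for every pair of libraries: 0.65 to 0.78 within a line, 0.48 to 0.53 between Raji and Namalwa and 0.05 to 0.22 with L428-PAX5.

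Some regions were near the top of every list. At chr3:126793570-126794552 the −log10 p was 98.7 and 115.5 in Raji 1 and 2, 93.6 and 54.0 in Namalwa 1 and 2, and 64.7 and 56.4 in L428-PAX5 1 and 2. At chr2:47951216-47952232 Raji had 55.3 and 82.4, Namalwa 110.4 and 52.9, and L428-PAX5 44.3 and 35.6. Both had a mean percentile above 99 in the Burkitt and in the L428-PAX5 lists. The next 3 by mean percentile over all lists were chr9:131418815-131419557, chr8:101965089-101965989 and chr22:33695402-33696293. Their mean Burkitt percentiles were 98.5, 98.7 and 98.9, and their mean L428-PAX5 percentiles were 94.9, 92.5 and 88.1.

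Other regions ranked high in the Burkitt lists and close to the threshold in L428-PAX5. The widest gap was at chr1:192485859-192486435, with −log10 p of 17 and 18.6 in Raji 1 and 2, 25.0 and 10.8 in Namalwa 1 and 2, and 5.99 and 5.39 in L428-PAX5 1 and 2. Its mean percentile was 86.6 in the Burkitt lists and 19.7 in the L428-PAX5 lists. At chr19:57954596-57955184 Raji had 17.7 and 43.3, Namalwa 39.9 and 21.9, and L428-PAX5 8.86 and 5.06. All 4 Burkitt values were above both L428-PAX5 values at each of these regions, and all were also above them by percentile. The other 3 regions with the largest gaps in this direction were chr11:123195925-123196672, chr1:167772455-167773043 and chr8:8610262-8611013, where the mean L428-PAX5 percentile minus the mean Burkitt percentile was -63.5, -61.9 and -61.8 points. At the last of these, Raji 2 was close to the threshold as well, with a −log10 p of 5.58.

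The gap in the other direction was smaller. At chr9:131418005-131418636 the −log10 p was 12.6 and 9.91 in Raji 1 and 2, 5.38 and 5.26 in Namalwa 1 and 2, and 21.7 and 10.2 in L428-PAX5 1 and 2. Its mean percentile was 87.4 in L428-PAX5 and 40.0 in the Burkitt lists, a difference of 47.4 points. The libraries overlapped, since L428-PAX5 2 (percentile 78.9) was below Raji 1 (82.7). This region lay 179 bp from chr9:131418815-131419557, which had a mean percentile above 90 in both kinds of list. The mean Burkitt percentiles of these neighbouring regions thus differed. At chr20:55972041-55973906 Raji had 7.32 and 8.25, Namalwa 6.97 and 6.78, and L428-PAX5 25.4 and 9.22. Here L428-PAX5 1 stood far above the other 5 libraries, and L428-PAX5 2 was above the Burkitt values by less than the gap between the L428-PAX5 libraries. The remaining 3 were chr3:127469025-127469991, chr2:209130152-209131261 and a region of an unlocalized chromosome 17 contig, with differences of 36.7, 35.4 and 37.4 points. At the chromosome 3 and chromosome 2 regions both L428-PAX5 percentiles were above every Burkitt percentile. At the contig region L428-PAX5 2 (percentile 86.9) was below Raji 1 (88.9).

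The 78 regions with 3 Burkitt libraries mostly lacked the shortest list, Namalwa 2, which was the missing library in 58 of them. The highest by mean percentile was chr2:65454321-65455010, where the −log10 p was 17.9 in Raji 1, 22.0 in Raji 2, 27.1 in Namalwa 1, 29.0 in L428-PAX5 1 and 21.5 in L428-PAX5 2. These values overlapped, while by percentile both L428-PAX5 libraries (98.2 and 97.2) were above Raji 1 (92.8), Raji 2 (91.5) and Namalwa 1 (93.1). At chr9:5438305-5439286 the values were 12.9 and 28.0 in Raji, 18.8 in Namalwa 1, and 16.4 and 16 in L428-PAX5, which overlap by −log10 p and by percentile. At chr9:112181019-112181530 Raji stood higher, with 25.3 and 53.6 against 10.3 in Namalwa 1, and L428-PAX5 had 18.0 and 12.2. The next 2 by mean percentile were chr11:76383501-76384269 and chr6:26285222-26286352, also without a peak in Namalwa 2.

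Among the 31 regions of both Raji libraries and no Namalwa library, the strongest was chr17:62971273-62972354. Its −log10 p was 13.8 and 14.8 in Raji 1 and 2 and 26.0 and 17 in L428-PAX5 1 and 2, so that both L428-PAX5 values were the higher ones. At chr9:122498963-122499662 the values were 14.9 and 33.3 in Raji and 13.4 and 9.75 in L428-PAX5, with both Raji values higher. The other 3 named by the same rule, chr9:565359-566075, chr1:21620542-21621833 and chr18:54750727-54751202, had mean L428-PAX5 percentiles of 93.4, 92.7 and 89.4 and mean Raji percentiles of 69.3, 60.0 and 53.5. Over the whole class the median of the mean percentile was 68.3 in L428-PAX5 and 53.8 in Raji.

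Among the 18 regions of both Namalwa libraries and no Raji library, the strongest was chr6:68598904-68599633. Its −log10 p was 42.3 and 9.07 in Namalwa 1 and 2 and 12.9 and 12.0 in L428-PAX5 1 and 2, with Namalwa 1 above the other 3 libraries. At chr8:126622624-126623331 Namalwa had 11.5 and 9.36, and L428-PAX5 had 23.1 and 14.6, both of which were higher. The other 3 were chr14:81397198-81397988, chr3:194406353-194407139 and chr5:176858513-176859230, where the mean Namalwa percentile (79.3, 80.3 and 80.9) was above the mean L428-PAX5 percentile (76.0, 60.3 and 59.2). The medians over the class were 62.4 in L428-PAX5 and 58.1 in Namalwa, closer together than in the Raji class. In both classes the required absence of a peak in the other Burkitt line favours weak Burkitt peaks by construction.

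The 38 regions with 1 library of each Burkitt line ranked higher in L428-PAX5 than in the Burkitt lists. Part of this is built in. The class needs a peak in both L428-PAX5 lists and no peak in 1 list of each Burkitt line. The median of the mean percentile was 68.5 in L428-PAX5 and 41.2 in the Burkitt lists. At chr17:55926745-55927772 the −log10 p was 13.7 in Raji 2, 15.4 in Namalwa 1, and 12.1 and 10.5 in L428-PAX5 1 and 2. At chr20:34541771-34543173 it was 7.21 in Raji 1, 10.6 in Namalwa 1, and 24.7 and 16.8 in L428-PAX5. At the first, both L428-PAX5 values were below the Burkitt values by −log10 p but above them by percentile, with 82.3 and 80.5 against 78.3 in Raji 2 and 79.7 in Namalwa 1. At the second, both were above by either measure. The other 3 of the top 5 were chr17:41438004-41438997, chr9:123654910-123656165 and chr15:22460962-22462542, each with peaks in Raji 2 and Namalwa 1.

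The 132 regions with 1 Burkitt library were found in Namalwa 1 or Raji 2 in all but 6 cases. Behind the chromosome 2 region that led both L428-PAX5 lists, the highest were chr2:206546420-206546902, chr8:145612028-145612620, chr2:201988542-201989078 and chr9:132785053-132785792. At chr2:206546420-206546902 the −log10 p was 15.1 in Namalwa 1 and 18.8 and 14.8 in L428-PAX5 1 and 2. The Burkitt value was within the L428-PAX5 range by −log10 p but lower by percentile, with 79.0 against 94.2 and 91.7. At chr9:132785053-132785792 it was 9.97 in Raji 2 and 23.1 and 20.4 in L428-PAX5, and the Burkitt value was the lowest. Over the class the median of the mean percentile was 58.5 in L428-PAX5 and 32.6 in the Burkitt lists. Part of this gap is built in, since the class needs both L428-PAX5 lists and only 1 Burkitt list.

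Peaks of L428-PAX5 and of the Burkitt lines lay close to each other within a shared region, though less close than peaks of the Burkitt lines did. The median distance between the centres of the best peaks was 60.3 to 83.8 bp over the 8 pairs of a Burkitt and an L428-PAX5 library. It was 39.0 to 45.5 bp over the 4 pairs of Raji and Namalwa libraries, and 32.5, 46.8 and 35.8 bp between the libraries of Raji, Namalwa and L428-PAX5. Centres were within 100 bp of each other in 59.6 to 66.7% of the regions for Burkitt and L428-PAX5 pairs, and in 73.6 to 81.9% for Raji and Namalwa pairs. Over all shared regions the 2 sets of pairs did not overlap in either measure. They did overlap in the smaller set of regions with 3 Burkitt libraries. There the medians were 50 to 122 bp with L428-PAX5 and 42.25 to 67.75 bp for Raji and Namalwa pairs. The shares within 100 bp were 40 to 69.7% and 66.7 to 73.3%. With 2 Burkitt libraries the medians were 53.25 to 106.75 bp with L428-PAX5, against 58.5 bp for 1 Raji and Namalwa pair. The overlap that defines a region bounds these distances, and median peak widths were 461 to 545 bp over the 6 lists.

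The distance showed no steady order over the number of Burkitt libraries. The mean of the medians of Burkitt and L428-PAX5 pairs was 72.1 bp with 1 library, 85.4 bp with 2, 70.8 bp with 3 and 67.7 bp with 4. The first of these means covers 4 pairs, those with Raji 2 or Namalwa 1, and the others cover 8. With 2 and 3 libraries, the pairs with Namalwa 2 had only 20 regions. In the regions of all 6 libraries the medians were 51.5 to 85.5 bp for Burkitt and L428-PAX5 pairs, against 38.0 to 43.5 bp for Raji and Namalwa pairs and 31.0 to 47.0 bp within a line. With 1 Burkitt library they were 64.3 to 88.8 bp. In the 695 regions of all 4 Burkitt libraries without an L428-PAX5 peak, Raji and Namalwa pairs had medians of 41.5 to 48.5 bp. The Raji libraries had one of 38.0 bp there and the Namalwa libraries one of 44.5 bp. In the L428-PAX5-only regions the L428-PAX5 libraries had one of 39.0 bp. The distances within a line and between the Burkitt lines were thus much the same outside the shared regions as in them.

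**Figure D4:**
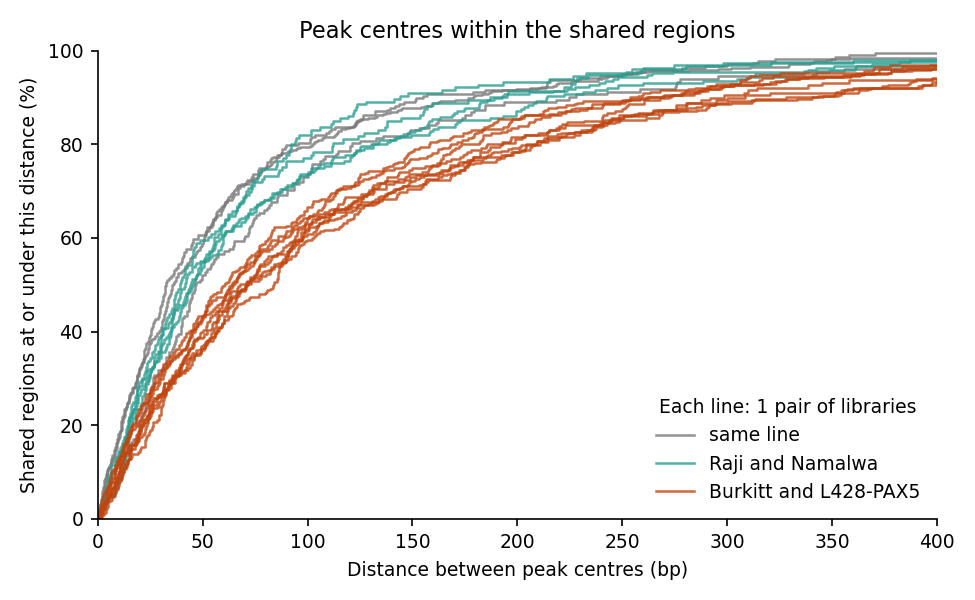
Share of shared regions (vertical, %) whose peak centres lay at or under a given distance (horizontal, bp), 1 line for each pair of libraries. The 8 curves of Burkitt and L428-PAX5 pairs run below the others around 100 bp, where they reach 59.6 to 66.7%, against 73.6 to 81.9% for Raji and Namalwa pairs.

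With a reciprocal overlap of 50% there were 409 shared regions, and with centres within 200 bp 390. In all 444 at least 1 L428-PAX5 peak overlapped a Burkitt peak directly, with a median overlap of 496 bp, and in 5 of them 1 of the L428-PAX5 libraries joined only through another peak. The 3 regions just inside the rule, with the smallest overlap, were chr6:143177494-143178847 with 35 bp, chr14:61220402-61221248 with 215 bp and chr8:128192277-128192610 with 243 bp. The first of these had −log10 p of 34.3 and 19.0 in L428-PAX5 1 and 2 and 6.43 in Namalwa 1. Just outside were 3 L428-PAX5-only regions with a Burkitt peak 23 bp away (chr8:135730985-135731436), 67 bp away (chr9:37593588-37594600) and 69 bp away (chr20:42286368-42287089). A Burkitt peak within 1000 bp was present for 31 of the 2043 L428-PAX5-only regions, and within 10 kb for 237.

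Shared regions were wider than L428-PAX5-only regions, and by construction more peaks were merged into them. The median width was 638 bp for L428-PAX5-only regions, 715 bp for shared regions with 1 Burkitt library and 852 bp for those with 4. In 24 shared regions a single library had several peaks.

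The shared regions lay on every chromosome except Y, where L428-PAX5 had 4 regions, none of them shared. Chromosomes 2, 1 and 17 held the most, with 44, 42 and 38 regions, 27.9% of all. As a part of the L428-PAX5 regions of each chromosome, the shares were highest on chromosome 19, with 20 of 73 (27.4%, exact 95% interval 17.6 to 39.1%), and chromosome 22, with 7 of 29 (24.1%, 10.3 to 43.5%). They were lowest on chromosome 13, with 1 of 25 (4%, 0.10 to 20.4%), and chromosome 4, with 5 of 80 (6.25%, 2.06 to 14%). Of the chromosomes with a shared region, only chromosome 4 had an interval without the overall 17.9%, and 23 chromosomes were looked at. Chromosome 8 had 184 L428-PAX5 regions, the third most, and 23 shared ones (12.5%, 8.09 to 18.2%). Gene density, base composition and copy number were not examined, and their part in these shares was not tested.

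**Figure D5:**
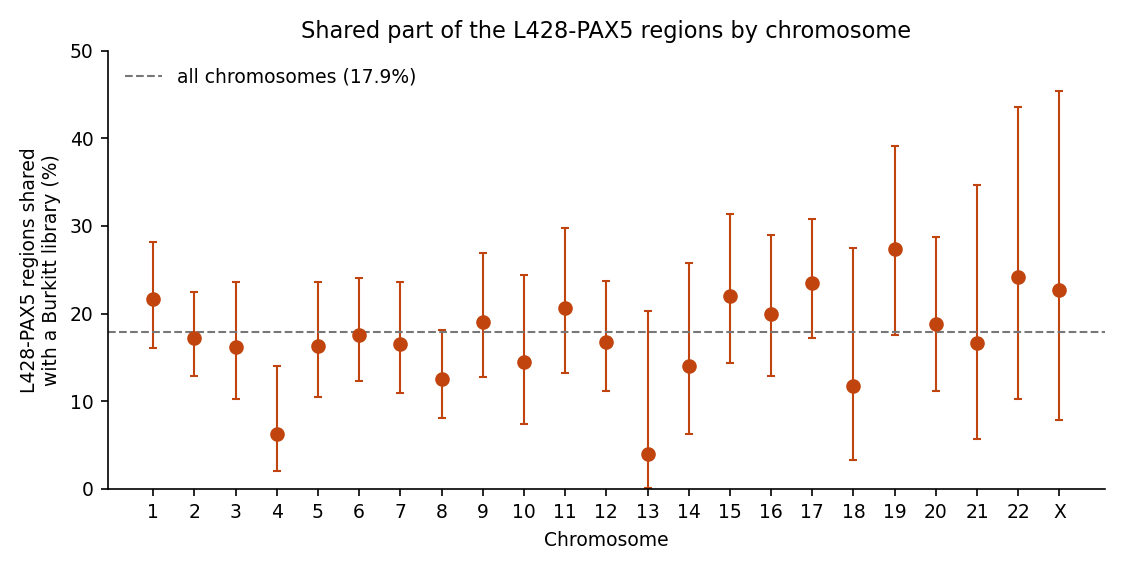
Share of the regions of both L428-PAX5 libraries that were shared with a Burkitt library (vertical, %) on each chromosome with at least 20 such regions; bars are exact 95% intervals for counting error, and the dashed line is the overall 17.9%. Chromosome 19 is highest at 27.4% and chromosome 13 lowest at 4%, and only the interval of chromosome 4 leaves out the overall share.

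Most shared regions lay more than 100 kb from the next one on their chromosome. The same distances were not computed for all L428-PAX5 regions, so the counts below show neither clustering nor even spacing. The median distance from a shared region to the next one on its chromosome was 3045696 bp, and 32 neighbours were within 100 kb and 7 within 10 kb of each other. The strong regions chr2:47951216-47952232 and chr9:131418815-131419557 were each in such a pair. A further pair lay at chr6:88635220-88636082, whose −log10 p was 20.8 and 32.0 in Raji 1 and 2, 27.4 and 14.5 in Namalwa 1 and 2, and 9.02 and 5.15 in L428-PAX5 1 and 2. All Burkitt values there were above both L428-PAX5 values.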

How the data were processed

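PAX5 immunoprecipitates of Raji, Namalwa and L428-PAX5 (fixed for 20 min in 1% formaldehyde, 10 µg of antibody, per the labels' protocols) were analysed, 2 libraries a line, grouped by sample title. The authors deposited 1 peak list per library with a p-value per peak, at most 9.8e-06, whose unit was read from the values. The peak names carry the name PeakRanger. CASAVA 1.3 and 1.8, BWA 0.5.9-r16 and hg19 are named in the submitters' processing notes. For caller settings, use of input and read depth the sources used here give nothing.

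Peaks were merged by an overlap of 1 bp or touching, and the best peak of each library stood for a region. The percentile is the mid-rank of −log10 p within a list. Intervals are exact (Clopper-Pearson, 95%) and cover counting error over regions only. Regions were named by rule: the 5 highest by mean percentile in each of 6 classes of Burkitt libraries, the 5 highest and 5 lowest differences of L428-PAX5 and Burkitt percentiles, and 3 on each side of the overlap rule. The regions in the top 20 of the L428-PAX5 lists and those near another shared region were added after their values were seen. The members, classes and measures were chosen with earlier results of these data known. The planned step on genes and motifs was not run, since no genome or annotation of hg19 was used here. In 3000 simulated regions, 727 of 727 planted shared regions were found. The simulated sites lay far apart and the peaks of a site always overlapped, so this checks only that the code applies the merging rule. The work ran in Python 3.11.15 with matplotlib 3.10.9, numpy 2.4.6, scipy 1.17.1 and pandas 2.3.3.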

Additional observations from a re-analysis of the deposited data

How the results depend on the processing

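Of 154 values (14 results under 11 alternatives), 118 stayed within 1.5 times a count, the interval of a share or the SD over pairs or libraries, and 36 moved. With the better 50% of each list there were 181 shared regions (14.2% of the L428-PAX5 regions), 57 in all 4 Burkitt libraries, 52 in 1, 52 in Raji only, 24 in Namalwa only and 105 in both lines. With lists of equal length these were 188 (14.6%), 72, 46, 57, 25 and 106. Fewer peaks enter both by construction. The mean rho of Raji and Namalwa pairs (0.506 as reported) was 0.463 with a reciprocal overlap of 50%, 0.537 in the better part and 0.428 with equal lengths, always above that with L428-PAX5 (0.127 as reported, 0.0946 to 0.157 in these settings and without contigs). The mean centre distance of L428-PAX5 and Burkitt peaks (69.1 bp) was 59.9 bp with reciprocal overlap and 56.1 bp with centres within 200 bp, both of which remove distant peaks by construction; within a line it was 37.1 and 36.1 bp.

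Without each library in turn there were 378 to 1042 shared regions and 15.2 to 17.7% of the L428-PAX5 regions, 149 to 252 regions in all remaining Burkitt libraries, 120 to 394 in 1, 35 to 255 in Raji only, 20 to 253 in Namalwa only and 169 to 534 in both lines. Each highest count came without L428-PAX5 replicate 2, where 1 L428-PAX5 library decides membership. The mean rho with L428-PAX5 was 0.127 to 0.206 and that of Raji and Namalwa 0.487 to 0.565, the median L428-PAX5 percentile was 52.4 to 67.5, and the centre distances were 66.3 to 71.8 bp with L428-PAX5 and 34.0 to 43.3 bp within a line. The mean Burkitt percentile was above the L428-PAX5 one in 65.4 to 75.2% of the regions of all libraries. The share on chromosomes 1, 2 and 17 was 26.7 to 28.8%. No paired analysis was possible because the results come from no test. Depth is unknown, and a region without a peak can lie under a list's threshold.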

Other observations

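L428-PAX5 had 4 regions on unplaced or unlocalized contigs, and 3 of them were found in all 6 libraries. On the contig chrUn_gl000220 (117705 to 120707) the −log10 p was 19.7 and 45.1 in Raji 1 and 2, 6.28 and 47.6 in Namalwa 1 and 2, and 34.6 and 12.0 in L428-PAX5 1 and 2. By percentile Namalwa 1 was low, at 24.2, and the other 5 libraries were between 86.1 and 99.6. The regions of the contigs chr7_gl000195_random (30618 to 33213) and chr17_gl000205_random (85014 to 87744) had values of 10.2 to 19.5 and of 5.65 to 15.2 in the Burkitt libraries. All 3 were 2595 bp or wider, against a median of 794.5 bp over the shared regions. Whether repeats or input signal take part in these peaks was not tested.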
